A study of Gallus gallus with 4 samples.

Results

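Complement is a set of blood and tissue proteins that mark microbes and dying cells for removal. In the classical pathway C1q, built from the chains encoded by C1QA, C1QB and C1QC, recognises a surface, the proteases C1r and C1s carried by C1q cut C4 and C2, and the resulting enzyme cuts C3. C5 and the terminal components that follow it, C7 among them, can then assemble a pore in a membrane, while fragments of C3 and C5 attract leukocytes through receptors. In mammals macrophages and dendritic cells are main sources of C1q, whereas the liver and stromal cells make much of the other components.

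The genes described here are C1QA, C1QB, C1QC, C1R, C1S, C3, C5 and C7, chosen as every probe set whose only annotated gene is one of 9 listed complement components and receptors. This gave 12 probe sets for 8 genes, out of 38439 probe sets on the array that are not controls. Their NCBI gene IDs are 419504 for C1QA, 428197 for C1QB, 419503 for C1QC, 418295 for C1R, 418294 for C1S, 396370 for C3, 417122 for C5 and 427187 for C7. The ninth listed name, the C3a receptor C3AR1, is annotated on this array under its newer symbol C3AR1L and is described with the other receptors.

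RNA was measured in the bursa of Fabricius, the chicken organ in which B cells form, in healthy Line-M chicks aged 19 days that were kept free of specific pathogens. The follicle-associated epithelium (FAE), which covers the lymphoid follicles, was compared with the interfollicular epithelium (IFE) between them, on 2 single-colour arrays each. All tissue was inked for 5 min and then held in EDTA (40 mM) and Hepes (25 mM, pH 7.4), FAE for 5 min at room temperature and IFE for 30 min at 37 °C, and a 29G needle was used to pick the cells under a stereomicroscope. The EDTA time and temperature therefore cannot be told apart from the epithelium in any comparison below. Samples were grouped by title, which matches the cell type label. For the IFE samples the source name reads FAE, against both of these, and it was set aside. Since no label ties the samples to separate birds, the p-values cover the spread between samples only, and that spread may be technical.

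Values are scaled signals, in which the median probe set of an array lies near 1, and a signal compares arrays for 1 probe set but not 1 gene with another. Each log2 fold change is the FAE mean minus the IFE mean of log2 signals, given with its standard error (SE), from limma across 23063 tested probe sets, and a probe set passed at a Benjamini-Hochberg adjusted p under 0.05. The background level of an array, the 95th percentile of 744 unnamed probe sets that lack the chicken prefix, ran from 0.671 to 0.722 on both FAE arrays and IFE replicate 1 and was 1.02 on IFE replicate 2. IFE replicate 2 also had a 3'/5' signal ratio of beta-actin of 31.2, against 14.4 to 18.6 on the other arrays. HINTW, a W-linked gene, was at 10.2 and 5.31 on the FAE arrays against 0.0864 and 0.178 on the IFE arrays, while its other probe set was under background on every array. No label gives the birds' sex, so a difference in sex between the groups, which was not tested, cannot be told apart from the epithelium either. The median log2 fold change was -0.18 over 474 tested Z-linked genes and -0.07 over 9810 tested genes on other chromosomes than Z and W. Over 7 tested W-linked genes it was 0.01. Of these HINTW passed as higher and NEDD4L as lower (-1.71 on the log2 scale, limma adjusted p = 0.0265). HNRNPKL and UBAP2L2 were at 1.61 and 1.04 and did not pass. Like HINTW, both were above background on both FAE arrays and under it on both IFE arrays. MBD2, NEDD4L and LOC425347 were above background on every array, and LOC427025 was mixed in both groups. The epithelial markers EPCAM and CDH1 were bright on every array, EPCAM between 315 and 554 and CDH1 between 245 and 484. Not all such markers were bright, as OCLN lay between 1.06 and 1.24 and TJP1 between 2.27 and 12.2.

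The C1q genes were higher in FAE, while no call in that direction was made for the other components. All 4 probe sets of C1QA, C1QB and C1QC passed as higher, the brighter C5 probe set passed as lower, the probe sets of C1R, C1S and C3 did not pass, and those of C7 were too dim to be tested. Of the 12 probe sets 9 were tested, and 2 of these, the dimmer C1QB set and the C1QC set, reached the minimum signal only through their FAE values. Over all tested probe sets 5.22% passed as higher and 3.01% as lower. The median log2 fold change was -0.06 over the 9 tested sets, also with sets under background taken at their bound, and -0.07 over all tested probe sets.

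**Figure D1:**
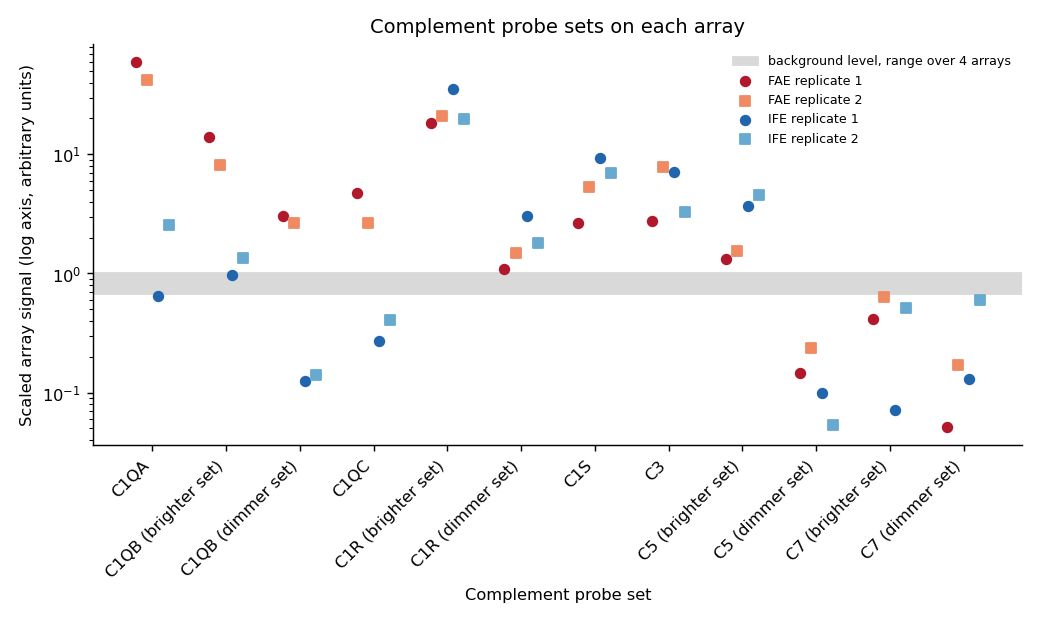
Scaled array signal (log axis) of the 12 complement probe sets, 1 point per array, with the range of the arrays' background levels as a grey band. The 4 C1q sets had both FAE points above both IFE points, C3 points were mixed, and the 3 untested sets of C5 and C7 lay under the band on every array.

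C1QA encodes the A chain of C1q. Its probe set gave 59.3 and 41.8 in FAE replicates 1 and 2 and 0.651 and 2.57 in IFE replicates 1 and 2. Both FAE arrays lay far above both IFE arrays, and the value on IFE replicate 1 was under that array's background level. The means were 50.5 ± 12.4 (SD, n = 2) in FAE and 1.61 ± 1.35 in IFE. The change was 5.27 on the log2 scale (SE 0.60, limma adjusted p = 0.00463). The log2 fold change was 4.28 without IFE replicate 1 and 6.26 without IFE replicate 2, so its size depends on an IFE value at background, while the call remained without each array in turn.

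C1QB encodes the B chain and was read by a pair of probe sets. The brighter gave 14.1 and 8.13 in FAE and 0.979 and 1.34 in IFE, all above background. It gave 11.1 ± 4.23 (SD, n = 2) against 1.16 ± 0.252. The change was 3.23 on the log2 scale (SE 0.37, limma adjusted p = 0.00445). With each array left out in turn this change lay between 2.83 and 3.63. The dimmer had 3.01 and 2.68 in FAE and 0.125 and 0.141 in IFE. Neither IFE value was above background, so on the mean this set was at least 3.31-fold higher in FAE. With signals raised to background the change was 1.73 on the log2 scale (SE 0.37, limma adjusted p = 0.0191). On the signals as measured the set passed at a limma adjusted p of 0.0129. Both C1QB probe sets were higher in FAE. The dimmer set reached the minimum signal only through its FAE values, so its direction adds no separate support. The call of the dimmer set was lost without either FAE replicate (adjusted p = 0.501 without replicate 1 and 0.291 without replicate 2).

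C1QC encodes the C chain, which pairs with itself when C1q is assembled. Its probe set gave 4.76 and 2.68 in FAE and 0.269 and 0.411 in IFE. Both IFE values were under background, and on the mean FAE was at least 4.16-fold higher. With signals raised to background the change was 2.06 on the log2 scale (SE 0.42, limma adjusted p = 0.0156). On the signals as measured the set passed at a limma adjusted p of 0.0109. That call was lost without either FAE replicate (adjusted p = 0.317 without replicate 1 and 0.0617 without replicate 2). In the gene table of the chicken assembly bGalGal1.mat.broiler.GRCg7b the genes lie in the order C1QB, C1QC, C1QA with 0 annotated genes between neighbours.

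The FAE replicates differed in the same direction at every C1q probe set. Replicate 1 was higher than replicate 2 by 0.51 on the log2 scale for C1QA, by 0.80 and 0.17 for the brighter and dimmer C1QB sets and by 0.83 for C1QC. The median of this difference over all tested probe sets was -0.04, and over the 11 tested markers of macrophages and dendritic cells it was 0.09. Among IFE arrays replicate 2 was the higher for all 4 sets, but only the brighter C1QB set was above background on both. IFE replicate 2 also had the higher background level, at 1.02 against 0.722 on IFE replicate 1.

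Most tested markers of macrophages and B cells were higher on the same arrays as C1q. Of 13 macrophage and dendritic cell markers on the array 11 were tested and 7 passed as higher, with no lower call and 2 below 0 at an unadjusted p under 0.05 (limma). Their summed signal was 1150 and 1141 in FAE and 493 and 560 in IFE. Such a sum mostly follows the brightest genes of a list. Lysozyme (LYZ) supplied most of the IFE sums, at 350 and 463, and was at 229 and 307 in FAE. The growth factor receptor CSF1R stood at 125 and 98.1 in FAE and at 11.1 and 8.67 in IFE, and the phagocytic receptor MERTK at 137 and 96.2 against 10.2 and 5.02. Other members of the list lay below 0. The transcription factor IRF8 had 3.94 and 3.87 in FAE and 12.6 and 7.03 in IFE (-1.27 on the log2 scale, limma adjusted p = 0.0719). LYZ was at -0.60 (adjusted p = 0.158) and the scavenger receptor MARCO at -0.69 (0.325), and none of the 3 passed. The scavenger receptor CD163L was under background on every array, and the mannose receptor MRC1, above background only on IFE replicate 2 at 1.85, did not reach the minimum signal. Of 9 B cell markers tested, 6 passed as higher, and the summed signal of the list was 156 and 162 in FAE and 23.9 and 24.0 in IFE. EBF1 (2.64 on the log2 scale, limma adjusted p = 0.0544) and IKZF1 (4.20, 0.0848) did not pass. The B cell factor PAX5 lay below 0 and did not pass (-0.85, adjusted p = 0.315). Of T cell markers 1 of 6 tested passed as higher (summed signal 60.8 and 52.2 in FAE, 29.7 and 22.6 in IFE), as did 1 of 5 endothelial markers, CDH5, and 2 of 3 thrombocyte and erythrocyte markers (13.5 and 13.8, against 3.17 and 4.41). The median of the 5 endothelial genes was -0.41 on the log2 scale, and 5 of the 11 on the array were under background everywhere. Over all 10398 tested genes 6.31% passed as higher and 3.95% as lower. Of 12 epithelial markers 3 passed as lower, with summed signals of 1512 and 1864 on the FAE arrays, against 2501 and 2627 on the IFE arrays. At an unadjusted p under 0.05 (limma) 8 were lower and 1 was higher. Of all tested genes 14.2% were lower and 13.4% higher at that unadjusted threshold. CLDN3, DSP and JUP lay above 0, at 0.58, 0.71 and 0.32 on the log2 scale, and did not pass. The part of these markers in the C1q difference was not tested. In bulk samples more cells of a type and more RNA per cell cannot be told apart.

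**Figure D2:**
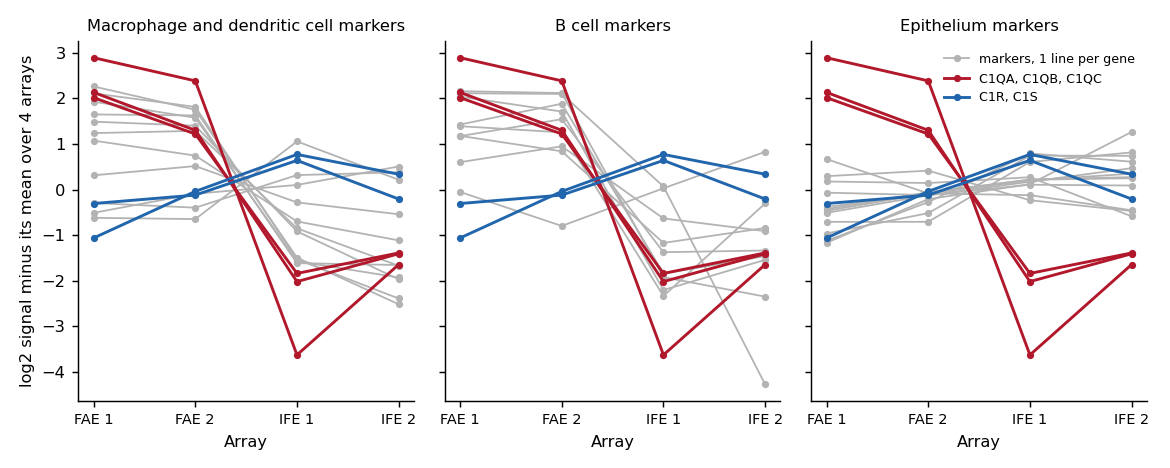
Log2 signal of each gene minus its mean over the 4 arrays, with tested markers of macrophages and dendritic cells, B cells and epithelium in grey, C1QA, C1QB and C1QC in red and C1R and C1S in blue. C1QA spanned the widest range of the 3 C1q genes, from 0.651 on IFE replicate 1 to 59.3 on FAE replicate 1 in scaled signal.

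C1R and C1S encode the proteases that C1q carries, and neither gene passed in either direction. The brighter C1R probe set gave 18.4 and 20.9 in FAE and 35.3 and 19.7 in IFE. The groups overlapped, and the log2 fold change was -0.43 (95% confidence interval -1.20 to 0.34, limma adjusted p = 0.477). The dimmer C1R set had 1.09 and 1.48 in FAE and 3.07 and 1.79 in IFE. Here both FAE values lay below both IFE values, with a log2 fold change of -0.89 (-1.85 to 0.08, adjusted p = 0.242). Without IFE replicate 2 the brighter set passed as lower, at -0.85 (adjusted p = 0.0181).

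C1S, read by 1 probe set, gave 2.64 and 5.36 in FAE and 9.39 and 6.95 in IFE. The FAE values lay below the IFE values. The mean ± SD of IFE was 8.17 ± 1.72 (n = 2). The log2 fold change was -1.10 (95% confidence interval -2.04 to -0.17, limma adjusted p = 0.148), which did not pass over all probe sets. In the assembly named above C1S and C1R are neighbours with 0 annotated genes between them. Across the tested members, both FAE arrays lay above both IFE arrays for 4 probe sets and below them for 3, against 25.4% and 30.5% of all tested probe sets.

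C3, the component on which all complement pathways converge, varied more within groups than between them. Its probe set gave 2.74 and 7.90 in FAE and 7.17 and 3.29 in IFE. Each group held a high and a low array, with means of 5.32 ± 3.65 (SD, n = 2) and 5.23 ± 2.75. The log2 fold change was -0.06 (95% confidence interval -1.42 to 1.29, limma adjusted p = 0.962), an interval that spans more than a 2-fold change either way. With each array divided by its median instead, the value was 0.07.

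FAE replicate 1 held the lowest signal of C3, of C1S and of both C1R probe sets. Markers of fibroblasts and stroma, cells that make these components in mammals, had a summed signal of 12.4 and 31.0 in FAE replicates 1 and 2 and of 39.2 and 28.3 in IFE, also lowest on FAE replicate 1. Of their 14 genes 12 were tested and 1 passed, as lower in FAE, and LUM was under background on every array. COL5A1, COL6A1, DCN, FBN1, POSTN and THY1 were also under background on FAE replicate 1. Of the genes above background on FAE replicate 1, COL3A1, COL6A3, PDGFRB and SPARC were lowest there, while COL1A1, COL1A2 and PDGFRA were not. The part of these markers in the C1R, C1S and C3 values was not tested.

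C5, which is cut into the attractant C5a and the pore-starting C5b, was lower in FAE on its brighter probe set. That set gave 1.33 and 1.56 in FAE and 3.72 and 4.55 in IFE, all above background. FAE averaged 1.45 ± 0.160 (SD, n = 2) and IFE 4.14 ± 0.590, a log2 fold change of -1.51 (SE 0.31, limma adjusted p = 0.0309). The call was lost without either FAE replicate (adjusted p = 0.330 without replicate 1 and 0.159 without replicate 2), without the signal filter (0.0617) and without the intensity trend (0.0782). The other C5 set was under background on every array, at 0.145 and 0.235 in FAE and 0.0989 and 0.0538 in IFE.

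C7, a component of the membrane pore, was not measured above background by either of its probe sets. The brighter gave 0.413 and 0.637 in FAE and 0.0714 and 0.516 in IFE. The dimmer had 0.0513 and 0.170 in FAE and 0.130 and 0.602 in IFE. Each value was under its array's background level, so no fold was computed, and C7 RNA was not detectable by these probe sets in either epithelium.

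In a wider list of complement genes ordered by role, the C1q genes, clusterin and 3 genes listed as receptors passed as higher. Of these 3, C4BPG belongs to the C4b-binding protein family and was listed under an older symbol. The list had 45 genes on the array, the 8 above included, and 31 could be tested. Of these, 7 passed as higher and 1 as lower in FAE, against 6.31% and 3.95% of 10398 tested genes, with each gene read by its brightest tested probe set. Of the 31 genes 3 reached the minimum signal only through their FAE values, C1QC and CLU among the 7 and C5AR1, so the count of higher genes holds 2 that had to differ to be tested. The median log2 fold change was 0.29 over the 31 genes, also with genes under background at their bound, and -0.07 over all tested genes. Without the 8 genes above, 4 of 24 tested genes passed as higher, CLU still among them, and 0 as lower. At an unadjusted p under 0.05 (limma) 5 were higher and 0 lower, against 13.4% and 14.2% of all tested genes. Since the list was chosen with earlier results of these data known, its counts beside the shares of all genes are a description.

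**Figure D3:**
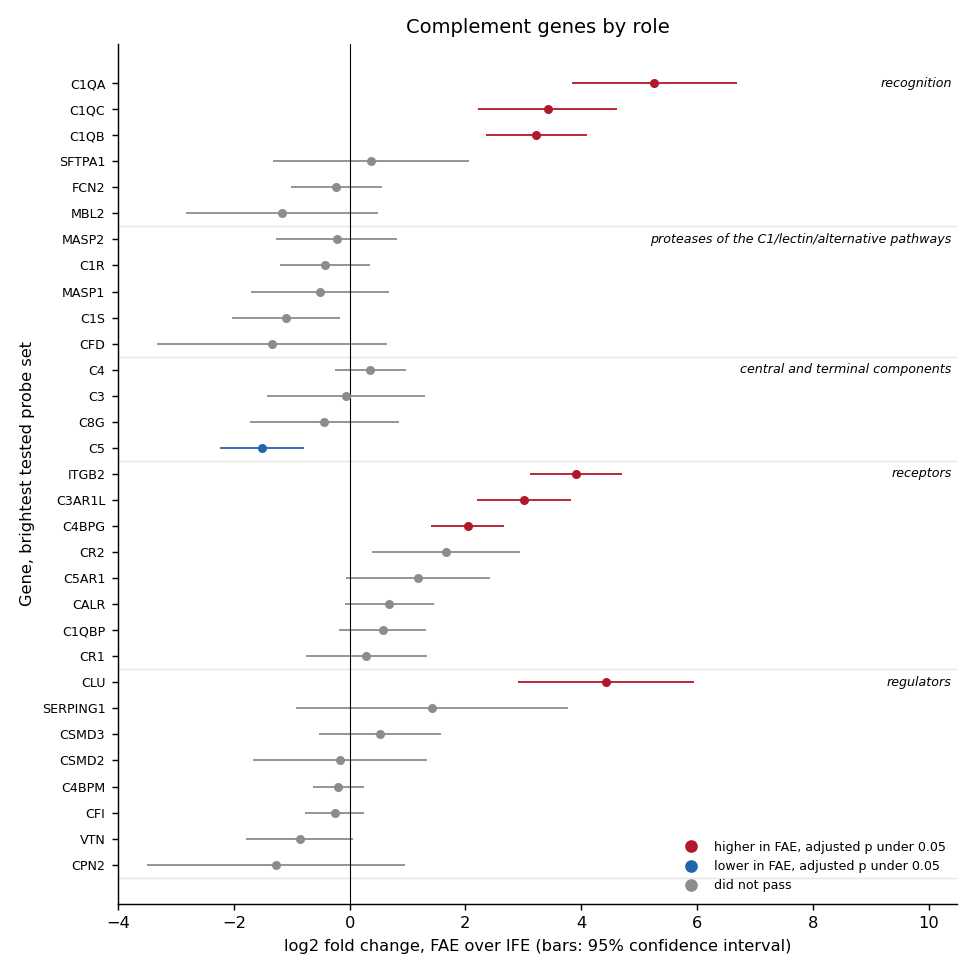
Log2 fold change, FAE over IFE, with its 95% confidence interval for 31 tested complement genes grouped by role, red where higher and blue where lower at an adjusted p under 0.05. C1QA, C1QB, C1QC, ITGB2, C3AR1L, C4BPG and CLU were the genes called higher, and C5 was the gene called lower.

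Among recognition molecules, the C1q genes were the 3 that passed of 6 tested. The mannose-binding lectin gene MBL2 gave 0.394 and 0.493 in FAE and 0.694 and 1.42 in IFE and did not pass (limma adjusted p = 0.368). The ficolin FCN2 did not pass either, at a log2 fold change of -0.23 (adjusted p = 0.722). The surfactant protein gene SFTPA1 ranged from 25.1 to 147 within IFE and did not pass (adjusted p = 0.798). Its FAE values, 73.4 and 83.8, lay between the IFE values, so its direction depends on the IFE array. The collectins COLEC10, COLEC11 and COLEC12, the pentraxin PTX3 and FCN3 were too dim to be tested.

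None of the 5 tested proteases passed in limma, and 1, C1S, was lower at an unadjusted p under 0.05. Besides C1R and C1S these were the lectin pathway proteases MASP1 at -0.51 and MASP2 at -0.22 and the alternative pathway protease CFD at -1.34 on the log2 scale, with adjusted p of 0.589, 0.803 and 0.384. Another CFD set disagreed in sign, at 0.18 (adjusted p = 0.837), as did another MASP2 set at 0.41 (0.592). For C4, the substrate of C1s, the arrays read 7.52 and 7.22 in FAE and 6.12 and 5.41 in IFE. The change was 0.36 on the log2 scale (95% confidence interval -0.26 to 0.97, adjusted p = 0.458). The terminal component genes C6, C8A and C8B were too dim to be tested, as C7 was. C8G, which encodes the small chain of C8, did not pass (-0.44, adjusted p = 0.678).

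Of 8 tested genes listed as receptors, 3 passed as higher, C3AR1L, ITGB2 and C4BPG. CR1, C1QBP and CALR did not pass, at 0.29, 0.57 and 0.69 on the log2 scale. C5AR1 and CR2, given below, did not pass either. The C3a receptor gene C3AR1L was higher in FAE on both of its probe sets. The brighter gave 25.4 and 17.4 in FAE and 3.27 and 2.08 in IFE. The change was 3.01 on the log2 scale (SE 0.34, limma adjusted p = 0.00445). The dimmer had 11.3 and 7.14 in FAE and 2.07 and 1.69 in IFE, which is 2.27 on the log2 scale (SE 0.33, adjusted p = 0.0101). As for C1q, FAE replicate 1 was the higher of the FAE arrays. Without FAE replicate 1 the brighter set just missed the threshold (adjusted p = 0.0505).

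ITGB2, the beta chain shared by the leukocyte integrins that bind cleaved C3 in mammals, gave 96.7 and 78.7 in FAE and 7.78 and 4.29 in IFE. Its log2 fold change of 3.92 (SE 0.33, limma adjusted p = 0.00232) passed without each array in turn. ITGB2 is also in the macrophage marker list, so the lists are not independent. The C5a receptor C5AR1 had 1.09 and 2.06 in FAE and 0.585 and 0.744 in IFE, both IFE values under background, with no call (adjusted p = 0.229). CR2, in mammals a B cell receptor for C3d, had 3.80 and 10.2 in FAE and 1.39 and 2.75 in IFE. The change was 1.67 on the log2 scale (SE 0.54, adjusted p = 0.117). On these probe sets both FAE values of each gene exceeded its IFE values, but neither passed. Of the other CR2 sets tested, 1 overlapped between groups, with 1.37 and 1.67 in FAE and 0.619 and 2.18 in IFE (0.38 on the log2 scale, adjusted p = 0.754), and 1 did not overlap, with both IFE values under background (adjusted p = 0.193).

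Of 8 tested regulators, clusterin (CLU), which binds the forming pore, passed as higher. It gave 12.0 and 7.30 in FAE and 0.861 and 0.219 in IFE. The change was 4.43 on the log2 scale (SE 0.64, limma adjusted p = 0.00998). CLU reached the minimum signal only through its FAE values. The value on IFE replicate 2 was under background, and with signals raised to the background level the change was 3.32. The call was lost without FAE replicate 1 (adjusted p = 0.0775) and without the intensity trend (0.0590).

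C4BPG, a gene of the chicken C4b-binding protein family that was listed among the receptors under its older symbol CR1L, was higher in FAE as well. Its signals were 20.7 and 19.2 in FAE and 5.43 and 4.34 in IFE. The change was 2.04 on the log2 scale (SE 0.26, limma adjusted p = 0.00696), which did not pass without FAE replicate 1 (0.126) or without FAE replicate 2 (0.0764). The related membrane gene C4BPM was bright on all arrays, at 146 and 152 in FAE and 158 and 185 in IFE, and did not pass (-0.20, 95% confidence interval -0.64 to 0.25). A much dimmer C4BPM set was at -1.16 (adjusted p = 0.0872). Complement factor I, the protease that inactivates C3b and C4b and is encoded by CFI, gave 309 and 391 in FAE and 356 and 483 in IFE (-0.26, interval -0.77 to 0.25). On the probe sets of C4BPM and CFI named first, the intervals lie within a 2-fold change either way.

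The C1 inhibitor gene SERPING1, whose protein blocks C1r and C1s, gave 1.87 and 3.70 in FAE and 3.12 and 0.311 in IFE. Its groups overlapped and it did not pass (limma adjusted p = 0.439). Vitronectin (VTN), which also binds the forming pore, had 49.5 and 73.9 in FAE and 162 and 74.6 in IFE and did not pass (adjusted p = 0.237).

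Genes with the pattern nearest to each member over the 4 arrays were found by the distance between log2 signals centred on each gene's mean. With 4 arrays and 10398 genes, near patterns are frequent and are given as a description. The distances to C1QA and C1QC use IFE signals under background, which are imprecise. C1QB and C1QC lay 0.23 apart. Nearest to C1QA were the secreted glycoprotein gene OLFM1 (0.32), the calcium channel gene CACNA1D (0.39) and the matrix gene TGFBI (0.56), each with an IFE value under background. The receptor gene EPHA3 lay at 0.15 from C1QC and at 0.28 from C1QB. Nearest to C5 were BEND6, BCKDHB and EMP2 at 0.09 to 0.11, and nearest to C3 was HERPUD1 at 0.34.

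**Figure D4:**
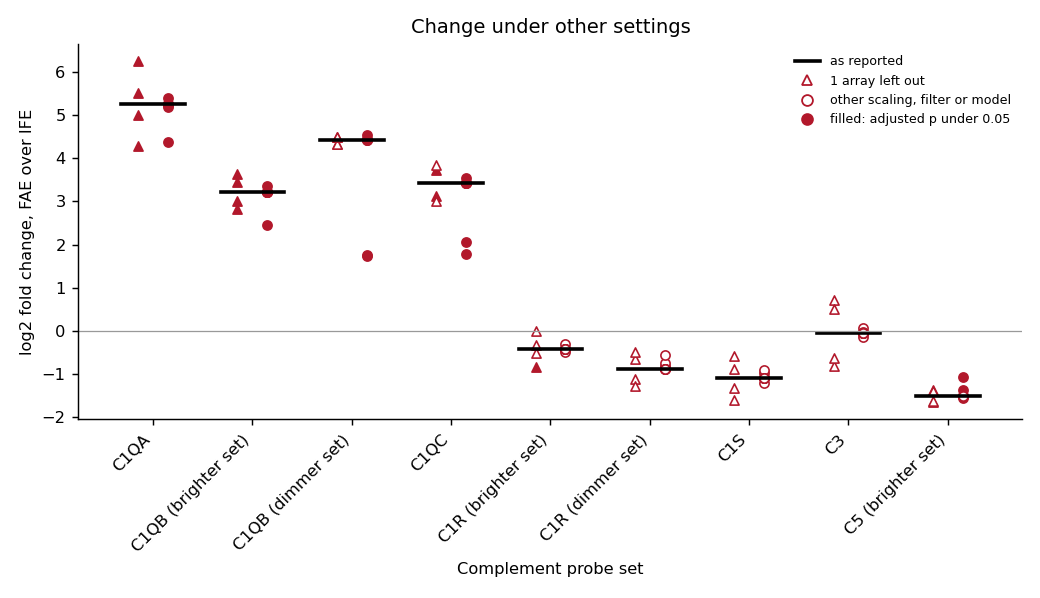
Log2 fold change, FAE over IFE, of the 9 tested complement probe sets as reported (bar), with 1 array left out (triangles) and under other scalings, filters and models (circles), filled where the adjusted p was under 0.05. The C1QA values lay between 4.28 and 6.26 and passed in every case shown, while C3 lay between -0.83 and 0.70.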

How the data were processed

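RNA of 2 FAE and 2 IFE samples was read on 4 single-colour Affymetrix chicken arrays. Per the submitters' processing notes, MAS5 was used. The deposited values are linear intensities with 1 value for each probe set on each array, and the authors' columns all have a median of 1. No source used here gives the MAS5 version or its settings.

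The 96 array controls were left out of the test. Arrays were brought to a shared 2% trimmed mean, followed by log2 with no offset. A minimum on the mean scaled signal, the 40th percentile (0.695), kept 23063 probe sets. FAE and IFE were compared in limma 3.58.1 (R 4.3.3; lmFit, and eBayes fitted to the intensity trend) by a two-sided test, and p-values were adjusted by Benjamini-Hochberg over all tested probe sets. On simulated data with known changes the fit returned their sizes but left most of them uncalled. Each probe set's noise was simulated with its own residual spread over the 4 arrays, so the uncalled share does not measure the power here.

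Gene names came from the platform annotation, updated by gene ID through the gene table of bGalGal1.mat.broiler.GRCg7b. The brightest tested probe set by mean log2 signal stood for a gene. Where both arrays of a group were under background, the fold is the bright group's mean log2 signal against the background level or the probe set's own signal, whichever was higher. Of 69 entries in the wider list, 45 matched a gene. Aliases that named another gene were dropped, and CREM was left out because the gene of that symbol is the cAMP-responsive modulator. Every probe set of the 8 genes is described. In the wider list up to 3 genes per role and direction were to be named among those that passed, and other genes were added after their values were seen. Not all of the 3 nearest patterns of each gene are printed. Probe sets with the suffix _s_at, among them the dimmer sets of C1QB and C1R, both sets of C5 and of C3AR1L, and the tested sets of C1S and C4BPG, can match several transcripts. The members and lists were chosen with earlier results of these data known. The number of arrays limits the precision. Alternatives covered scaling, filter, offset, variance model, replicate block and each array left out.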

Additional observations from a re-analysis of the deposited data

How the results depend on the processing

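The counts given are 4 complement probe sets higher and 1 lower in FAE, and 7 genes of the wider list higher and 1 lower. Left out in turn, single arrays gave 2 to 4 and 0 to 2 probe sets and 3 to 9 and 0 to 4 genes. The lowest counts of higher calls came without FAE replicate 1, where C1QA, C1QB and ITGB2 passed, and 2 probe sets passed without FAE replicate 2 as well. Without IFE replicate 2 the genes C1R, C5, C8G and VTN passed as lower. With 1 array in a group its spread is assumed to be that of the other group. The number of calls over all tested probe sets also varied widely with the array left out. The counts with an array left out therefore do not compare directly with those given. SFTPA1 lay above 0 without IFE replicate 2 and below 0 without IFE replicate 1. Without the filter, and without the intensity trend, 0 probe sets and 0 genes passed as lower (limma), and 2 and 1 of the probe sets and 2 and 2 of the genes were lower at an unadjusted p under 0.05. The filter, the representative probe sets and the scaling were kept when arrays were left out. With quantile normalization, the deposited scaling, an offset of 1, signals raised to background (chosen after seeing the data) and, for genes, the mean of their probe sets, the counts were as given. With the stricter filter, at the 60th percentile, 3 probe sets were higher, since the dimmer C1QB set was then not tested. Dividing arrays by their median moved all changes by about 0.13 on the log2 scale. C3 turned positive under that scaling and without FAE replicate 1 or IFE replicate 1 (0.07, 0.70 and 0.50), with no call.

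The replicate numbers are shared by FAE and IFE, but nothing in the labels says that they pair the samples. Deviations of same-numbered samples correlated at 0.02. With the replicate block, 4 and 1 probe sets and 8 and 1 genes passed, CR2 being the gene added. Most C1q values of IFE lie at or near background, which limits the sizes of those changes. The C1QA value on IFE replicate 2 was higher, at 2.57 against a background level of 1.02. The dimmer C1QB set and the C1QC set were tested only through their FAE values, so their direction adds no separate support.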
